A study of Rattus norvegicus with 8 samples.

Results

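The genes described here are 9 members of the antigen presentation machinery, B2m, Tap1, Tap2, Psmb8, Psmb9, Cd74, RT1-Da, RT1-Ba and RT1-Bb, which were chosen by name and found on the arrays through the platform annotation. All 15 probe sets whose single gene symbol is one of these names were taken, of 31042 on the arrays once control probe sets were removed. The arrays carry total RNA from slice cultures of rat hippocampus, living tissue slices maintained in vitro. The pyramidal cell fields CA1 and CA3 were sampled apart, with 15 cultures behind each array and a time of 7 days. There were 3 CA1 control arrays, 3 CA3 control arrays, 1 CA1 lesion array and 1 CA3 lesion array. What the lesion was, what the 7 days follow, and the strain and age of the rats are not in the labels, which also do not say whether arrays came from separate animals.

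Major histocompatibility complex (MHC) class I molecules show peptides from inside a cell to CD8 T cells, and almost every nucleated cell can make them. The immunoproteasome cuts proteins into such peptides, the TAP transporter carries them into the endoplasmic reticulum, and B2m, the light chain shared by class I molecules, holds the finished complex together. Class II molecules, named RT1-B and RT1-D in the rat, show peptides from engulfed material to CD4 T cells. In brain tissue they are known mainly from activated microglia and other myeloid cells, and Cd74, the invariant chain, fills their groove until a peptide is loaded. Interferon gamma is the classic inducer of both arms, and neurons are known for low class I levels at rest.

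The member genes apart from B2m and Cd74 lie close together on rat chromosome 20. In the RefSeq gene order of the GRCr8 assembly, Tap2, Psmb8, Tap1 and Psmb9 follow one another with no other protein-coding gene between them, and RT1-Ba lies next to RT1-Bb. Tap1 and Psmb9 are read in opposite directions, and their start sites in the RefSeq promoter table are 456 bases apart. Because 4 promoters of the class I arm share an element and the class II promoters share another, stretches of them are shown, 5′ to 3′ on the strand of the gene, with matches in capitals. In the first 4 stretches the capitals mark an interferon regulatory factor element, GAAA and GAAA with any 2 bases between them, read on either strand. In B2m and Tap1 the run of capitals nearer the 3′ end is an NF-kB element, also searched on either strand.
B2m: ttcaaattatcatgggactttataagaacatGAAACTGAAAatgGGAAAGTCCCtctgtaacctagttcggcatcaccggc
Tap1: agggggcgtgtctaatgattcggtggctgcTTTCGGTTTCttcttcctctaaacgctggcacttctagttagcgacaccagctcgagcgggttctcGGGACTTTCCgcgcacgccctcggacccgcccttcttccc
Tap2: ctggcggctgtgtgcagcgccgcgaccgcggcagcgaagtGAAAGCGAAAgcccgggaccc
Psmb8: tgctgtggcTTTCGCTTTCacttcc
In the class II stretches the capitals mark the Y box, CTGATTGG, and in RT1-Ba also a cAMP response element, TGACGTCA.
RT1-Da: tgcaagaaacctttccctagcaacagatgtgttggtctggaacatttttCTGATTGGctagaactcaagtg
RT1-Ba: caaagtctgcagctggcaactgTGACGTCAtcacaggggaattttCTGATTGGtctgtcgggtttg
RT1-Bb: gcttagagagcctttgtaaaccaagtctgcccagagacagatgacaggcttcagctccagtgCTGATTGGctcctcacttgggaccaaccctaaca

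These stretches lie, on GRCr8, at chr3:129549149-129549229 (plus strand) for B2m, chr20:4668559-4668694 (minus) for Tap1, chr20:4652317-4652377 (minus) for Tap2 and chr20:4657020-4657044 (minus) for Psmb8. The class II stretches lie at chr20:4515314-4515384 (plus) for RT1-Da, chr20:4576966-4577031 (plus) for RT1-Ba and chr20:4604149-4604244 (minus) for RT1-Bb. All 9 member genes had a promoter window in the RefSeq table, from 250 bases before to 50 after the start. The interferon regulatory factor element occurred in 4 of the 9 and in 3.92% of 33469 windows of that length. The NF-kB element occurred in 2 of the 9 and in 0.111% of all windows, and the Y box in 4 of the 9, Psmb9 among them, and in 3.5% of all windows. A cAMP response element, whose letters are the same on both strands, occurred in 1.83% of all windows. Psmb8 alone among the members held the interferon gamma activated site TTCNNNGAA, found in 8.87% of all windows. The motifs were searched on both strands, and a match describes letters in a window, not a bound site.

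Median intensities of the 8 arrays ran from 560 to 814. RNA integrity was read from the 3′/5′ ratios of Gapdh and beta-actin, higher in degraded RNA. For Gapdh it ran from 3.71 to 5.0 in the CA1 controls with 4.65 for the CA1 lesion. In CA3 it ran from 3.75 to 3.93 in the controls and was 5.23 in the CA3 lesion array, above all of them. For beta-actin both lesion arrays lay within their controls, at 17.3 against 14.5 to 22.2 in CA1 and at 19.8 against 15 to 21.4 in CA3. The dissected fields carried their own markers. Mpped1, Pou3f1 and Fibcd1 of CA1 pyramidal neurons were all lower in CA3 controls, each past the threshold used below. Nectin3 and Cpne4 of CA3 pyramidal neurons were higher, each past it. The remaining CA3 marker, Grik4, was higher by 1.62 ± 0.38 (SE) and did not pass (limma adjusted p = 0.1425). Microglia and macrophage markers differed among the controls of one field, with a summed intensity over 18 genes of 9768, 21808 and 113366 in CA1 controls 1 to 3 and of 10404, 17294 and 97974 in CA3 controls 1 to 3. Control 3 of each field thus stood apart from the other two, and mean lesion effects of the tested members and the main lists are also given without it. The same sum was 159877 for the CA1 lesion and 118070 for the CA3 lesion. In each field control 3 was thus the control nearest the lesion array. Leaving it out lowers the control mean of genes that follow these markers. That favours their calls, which are no independent support for a lesion effect.

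Values are given as log2(intensity + 16), one per probe set and array, so differences are on that scale and understate the change of dim probe sets. Of the 15 probe sets, 7 had a mean over the 8 arrays above the 40th percentile of all probe sets, a log2 value of 8.35, and only these were tested. They stand for 6 genes, B2m with both of its probe sets, Tap1 with 1 of its 2, Tap2, Psmb8, Psmb9 and RT1-Da. Below the filter were Cd74, all 4 probe sets of RT1-Ba, both of RT1-Bb and the other one of Tap1. The filter mean includes the lesion arrays, so a dim gene could pass through high lesion values or fail through low ones. Intensities of different probe sets are not compared with each other, since they depend on the probes.

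Among the tested members, the lesion arrays differed most clearly in B2m and Psmb8 of the class I arm. No member passed the threshold in the fit of all 8 arrays with 1 coefficient per group. B2m, the class I light chain, was higher than every control of its field in both lesion arrays by both of its probe sets. Psmb8, a catalytic subunit of the immunoproteasome, was on average 2.58-fold higher, yet control 3 of each field came close to the lesion array or matched it. Its partner Psmb9 and the transporter genes Tap1 and Tap2 differed less or varied more among controls. Class II members were dim, and their probe sets went different ways. Over the wider pathways, described below, the median lesion effect was 0.61 for the 9 class II genes tested and 0.43 for the 23 class I genes. RT1-Da, at 0.52 ± 0.73 (SE), was the only RT1-B or RT1-D chain among those 9, and the other such chains lay below the filter. The class II median therefore does not describe the class II molecules themselves.

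B2m has a probe set named 1367595_s_at, whose suffix marks probes that can match more than one transcript, and another named 1371440_at. By the first, CA1 controls 1 to 3 read 15.86, 15.69 and 16 and the CA1 lesion array 16.58. CA3 controls 1 to 3 read 15.53, 15.32 and 16.49, and the CA3 lesion array 16.77. Both lesion arrays thus lay above all controls of their field, in CA3 by 0.27 over control 3 and by 1.24 and 1.45 over controls 1 and 2. By 1371440_at, the CA1 controls read 14.70, 15.04 and 15.39 against 15.96 in the lesion array. The CA3 controls read 15.27, 15.27 and 15.59 against 15.82. The lesion arrays were again the highest of each field, by at least 0.57 in CA1 and 0.22 in CA3. These were the only 2 of the 15 member probe sets with the lesion array above all 3 controls in both fields, a pattern held by 7.25% of all 31042, and by 7.98% of those tested.

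Averaged over both fields, the lesion effect on B2m was 0.86 ± 0.27 (SE, with 2 lesion and 6 control arrays, limma adjusted p = 0.771) by 1367595_s_at, a 1.81-fold difference. By 1371440_at it was 0.68 ± 0.20 (SE, limma adjusted p = 0.771), a 1.60-fold difference. In this contrast 0 of 18625 probe sets passed, which is 0%, and 1193 had an unadjusted p under 0.05. The replicate number was left out of this fit. With it as a block the effects were 0.98 and 0.90, and the calls for B2m and for Psmb8 changed, as given at the end. Each lesion group is a lone array, so the spread came from the controls and the lesion arrays are assumed to vary like them. Without control 3 of both fields the effects were 1.07 (limma adjusted p = 0.0124) and 0.82 (limma adjusted p = 0.0439), and both passed. In that fit 182 probe sets, or 0.977%, passed, 138 of them higher. Without control 1 of both fields they were 0.80 and 0.56 (limma adjusted p = 0.882 each), and without control 2 of both 0.70 and 0.65 (limma adjusted p = 0.994 each).

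Psmb8 replaces a constitutive proteasome subunit in cells that make immunoproteasomes. Its values in CA1 controls 1 to 3 were 10.61, 11.29 and 12.90, and the CA1 lesion array stood at 12.89. In CA3 controls 1 to 3 they were 10.38, 10.89 and 12.35, and the CA3 lesion array stood at 12.64. The lesion arrays were thus high, and so was control 3, while controls 1 and 2 were low in both fields. Against control 1 the lesion array was higher by 2.28 in CA1 and 2.27 in CA3, and against control 2 by 1.60 and 1.75. Against control 3 the difference was -0.01 for CA1 and 0.29 for CA3. The mean lesion effect was 1.36 ± 0.60 (SE, limma adjusted p = 0.771), and 1.98 without control 3 of both fields (limma adjusted p = 0.0128). Of the controls left out by number, only number 3 had this effect. Without control 1 of both the value was 0.91 (limma adjusted p = 0.882) and without control 2 of both 1.21 (limma adjusted p = 0.994). No member passed in either, and 0 of all 18625 tested did.

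Psmb9, the other immunoproteasome subunit among the members, varied over a much narrower range, 0.72 over all 8 arrays. CA1 controls 1 to 3 read 11.89, 11.59 and 12.04 and the lesion array 12.31. The CA3 controls read 11.77, 12.03 and 12.31 and the lesion array 12.27. The CA1 lesion array was above its 3 controls, and the CA3 lesion array lay within its own. The mean lesion effect was 0.35 ± 0.22 (SE, limma adjusted p = 0.81), and 0.47 without control 3 of both fields (limma adjusted p = 0.412). Within CA1 controls Psmb8 had an SD of 1.18 and Psmb9 one of 0.23 (n = 3), and in CA3 controls 1.03 and 0.27.

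**Figure D1:**
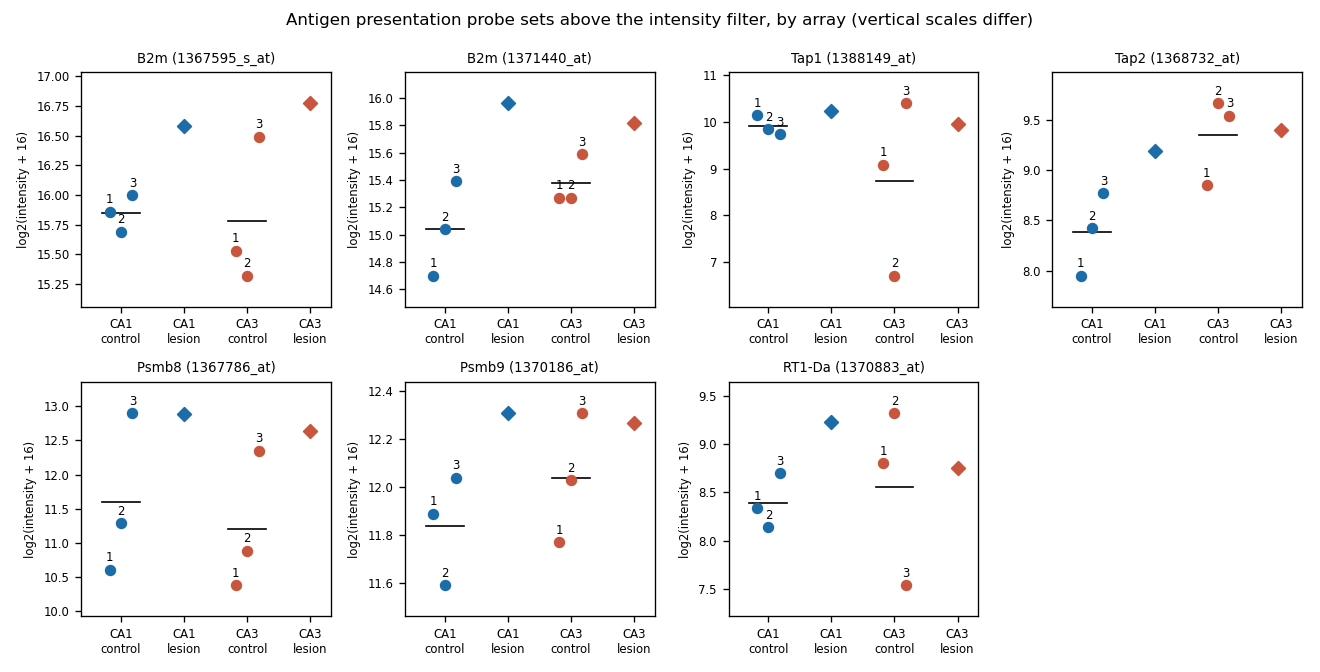
Each panel plots log2(intensity + 16) of 1 probe set above the intensity filter, with circles for controls (numbered 1 to 3), diamonds for the lone lesion arrays and a bar for the control mean; vertical scales differ between panels. The B2m diamonds lie above all circles of their field, and control 3 of Psmb8 lies close to the diamonds.

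Tap1 and Tap2 encode the partner chains of the peptide transporter. The Tap1 probe set 1388149_at read 10.14, 9.84 and 9.73 in CA1 controls 1 to 3 and 10.23 in the CA1 lesion array, which was the highest of the field by 0.09. In CA3 it read 9.08, 6.71 and 10.39 in the controls and 9.95 in the lesion array. The CA3 controls spanned 3.69, with control 2 far below the rest, and the lesion array lay inside that span. The mean lesion effect was 0.77 ± 0.78 (SE, limma adjusted p = 0.866). Its size rested on single controls: it was 0.27 when CA3 control 2 was left out and 1.19 when CA3 control 3 was. With control 3 removed from both fields it was 1.15 (limma adjusted p = 0.551).

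Tap2 read 7.95, 8.42 and 8.77 in CA1 controls 1 to 3 and 9.19 in the CA1 lesion array, above all of them. CA3 controls read 8.85, 9.66 and 9.54 and the CA3 lesion array 9.40, inside their range. The mean lesion effect was 0.43 ± 0.56 (SE, limma adjusted p = 0.898), and 0.57 without control 3 of both fields (limma adjusted p = 0.797). Tap2 is the only one of the 7 tested probe sets whose controls did not overlap between fields, with all CA3 controls above all CA1 controls, as was the case for 6.06% of the probe sets tested. The reverse order held for 8.85% of all tested and for none of the 7, and non-overlap in either direction for 14.9% of all tested, a share close to 1 of 7.

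RT1-Da, the alpha chain of the RT1-D class II molecule, was the only class II member above the filter. It read 8.34, 8.14 and 8.70 in CA1 controls 1 to 3 and 9.23 in the CA1 lesion array, the highest of that field. CA3 controls read 8.80, 9.32 and 7.54, and the CA3 lesion array, at 8.75, lay between them. Here control 3 was the lowest CA3 control, unlike for B2m and Psmb8. The mean lesion effect was 0.52 ± 0.73 (SE, limma adjusted p = 0.905), and 0.34 without control 3 of both fields (limma adjusted p = 0.899).

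Over the 7 tested probe sets, the CA1 lesion array lay above all its controls for 6 and the CA3 lesion array for 3, and none lay below all controls in either field. The same held for 21.2% of all tested probe sets in CA1 and for 29.7% in CA3, and 24.8% lay below all controls in CA1 and 24.8% in CA3. Over all 15 member probe sets the counts were 9 in CA1 and 4 in CA3, against 19.6% and 31.9% of all 31042. For the single fields 0 of the 7 passed in CA1 and 0 in CA3 (0% of all tested in each, with limma), at an unadjusted p under 0.05 for 1 in each, 1371440_at of B2m in CA1 and 1367595_s_at of B2m in CA3. The median of the 7 was 0.68 for the mean lesion effect, where that of all tested probe sets was 0.02. It was 0.81 in CA1 and 0.44 in CA3, beside 0.01 and 0.05 over all tested. The lesion effects did not differ detectably between the fields, with CA3 minus CA1 differences from -0.77 ± 1.12 for Tap2 to 0.89 ± 1.57 for Tap1 (SE, limma adjusted p = 1.0 for each of the 7).

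**Figure D2:**
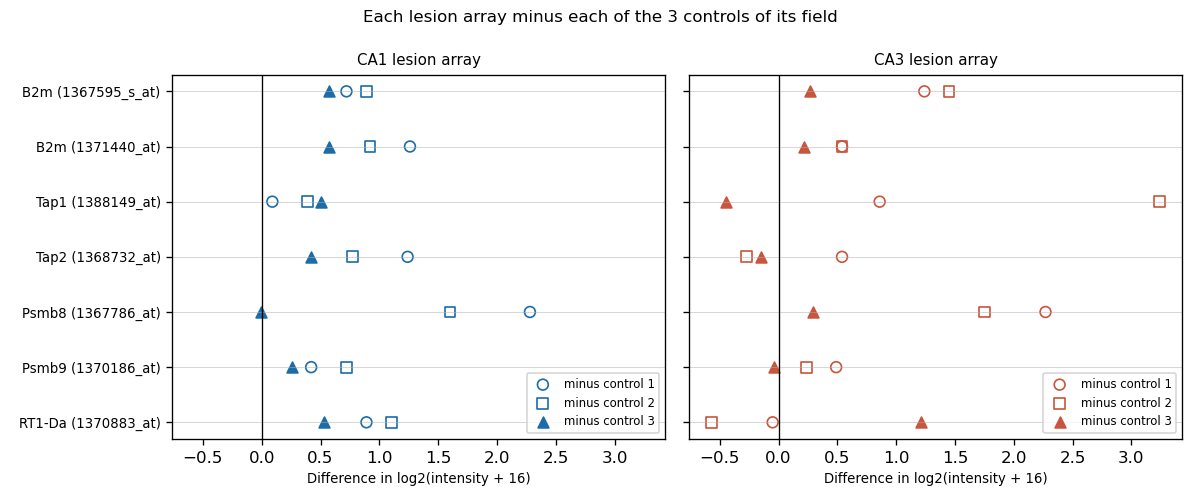
Horizontal axes give the lesion array minus control 1 (open circle), control 2 (open square) or control 3 (filled triangle) of its field, in log2(intensity + 16), for the 7 tested probe sets in CA1 (left) and CA3 (right). For Psmb8 the triangles sit at -0.01 and 0.29 while the circles sit at 2.28 and 2.27, and for B2m all symbols lie right of 0.

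Control cultures of CA3 and CA1 did not differ detectably in the tested members. Of the 7 probe sets, 0 passed for CA3 against CA1 controls and 0 had an unadjusted p under 0.05, while 98 of all tested, or 0.526%, passed. The differences ran from -1.18 ± 0.78 for Tap1 (SE, 3 controls each, limma adjusted p = 0.727) to 0.97 ± 0.56 for Tap2 (limma adjusted p = 0.688). The Tap1 value was -0.17 without CA3 control 2 and -2.01 without CA3 control 3. B2m stood at 15.85 ± 0.16 in CA1 and 15.78 ± 0.63 in CA3 controls (SD, n = 3) by 1367595_s_at, and at 15.04 ± 0.35 and 15.38 ± 0.18 by 1371440_at. Psmb8 stood at 11.60 ± 1.18 and 11.21 ± 1.03, and Psmb9 at 11.84 ± 0.23 and 12.04 ± 0.27. For Psmb8 the difference between fields, -0.39 ± 0.60 (SE), was smaller than the range of the 3 controls within either field, 2.29 in CA1 and 1.98 in CA3.

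Control 3 was the highest control in both fields for 4 of the 7 tested probe sets, both of B2m, Psmb8 and Psmb9, as for 17.1% of all tested. It was highest with control 1 lowest in both fields for 2, Psmb8 and 1371440_at of B2m, as for 6.34% of all tested. Among the members below the filter, Cd74 showed the same order. The difference between controls 3 and 1 was 2.29 in CA1 and 1.98 in CA3 for Psmb8, and 0.70 and 0.32 for 1371440_at of B2m.

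Cd74, RT1-Ba and RT1-Bb lay in the dim part of the arrays, so single values there carry little weight, and no test is given. Cd74 read 7.05, 8.94 and 8.99 in CA1 controls 1 to 3 and 8.23 in the CA1 lesion array. In CA3 it read 5.64, 5.66 and 8.27 in the controls and 9.42 in the lesion array. The CA3 lesion array was thus 3.78, 3.76 and 1.15 above its controls, whereas the CA1 lesion array lay below controls 2 and 3, by -0.71 and -0.75. Its mean over the arrays stood at the 30th percentile of all probe sets.

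RT1-Ba, the alpha chain of RT1-B, has 4 probe sets, at the 3.5th to 25.7th percentile, and they disagreed. In CA1 the lesion array was above all controls by 1381593_x_at and 1370822_at, with 8.30 and 7.66, and below all of them by 1392334_at, with 6.66. In CA3 it was below all controls by 1377334_at, at 6.95 against 7.59, 8.04 and 8.48, and within their range by the other three. RT1-Bb, the beta chain of RT1-B, read lower than every control in both lesion arrays by 1371033_at, with 7.66 against 8.0, 8.61 and 8.10 in CA1 and 5.90 against 8.65, 6.97 and 8.68 in CA3. By 1371065_at both lesion arrays lay within their controls, at 6.57 in CA1 and 6.76 in CA3. The second Tap1 probe set, 1375379_at, at the 7th percentile, lay above all controls in CA1 and below all controls in CA3, unlike 1388149_at.

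**Figure D3:**
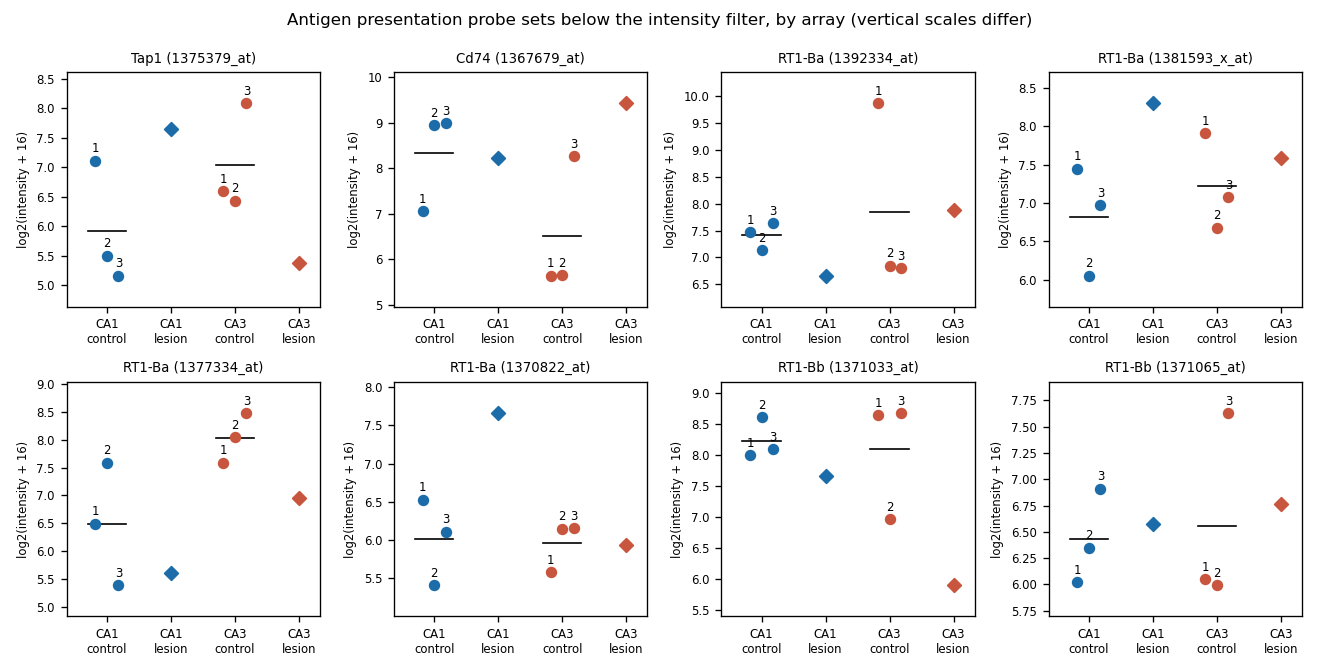
Panels plot log2(intensity + 16) of the 8 member probe sets below the intensity filter, with circles for controls 1 to 3, diamonds for lesion arrays and a bar for the control mean; vertical scales differ. Probe sets of RT1-Ba and of RT1-Bb place the diamonds differently relative to the circles of the same field.

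The wider class I pathway was read through 23 genes that the arrays cover with a single-symbol probe set, all tested, members included. For the mean lesion effect 19 were higher and 4 lower, with a median of 0.43, and 0 passed with limma. RT1-N3, among the 19, read 5.24, 7.27 and 9.70 in CA1 controls and 9.05, 9.06 and 8.32 in CA3 controls. These averaged below the filter value, so it was tested only because of its lesion arrays, at 8.44 and 9.75. Its difference of 0.99 is therefore no support for a lesion effect. Without control 3 of both fields the median was 0.57 and 2 of the 23 passed, B2m and Psmb8, beside 0.977% of all tested. Smallest in p after B2m were the nonclassical class I gene RT1-T24-4 (0.98 ± 0.36, SE, limma adjusted p = 0.771) and the class I gene RT1-CE5 (1.0 ± 0.39, SE, limma adjusted p = 0.771). RT1-T24-4 read 10.02, 10.98 and 10.92 in CA1 controls 1 to 3 and 11.60 in the lesion array, and 9.84, 10.85 and 10.37 against 11.34 in CA3, so the lesion array was highest in each field. RT1-CE5 read 9.68, 9.78 and 10.12 against 10.37 in CA1, and 9.50, 8.68 and 9.32 against 10.66 in CA3, again with the lesion arrays highest. Their probe set names end in _x_at, which marks probes shared with similar sequences, so near-identical class I genes cannot be told apart by them. Of the 23, 11 had the CA1 lesion array above all controls, 13 the CA3 lesion array and 6 both. Over all tested probe sets these shares were 21.2%, 29.7% and 7.98%. Calr, a chaperone of class I folding, ran the other way in CA1, at -0.69 ± 0.23 (SE, limma adjusted p = 0.999).

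Constitutive proteasome genes gave a narrow reference for the immunoproteasome subunits. Of 13 tested, 5 were higher and 8 lower in the mean lesion effect, with a median of -0.01, and 0 passed with limma. Their summed intensity ran from 416413 to 449809 over the 8 arrays. The one with the smallest p, Psma2, an alpha ring subunit, differed by 0.43 ± 0.20 (SE, limma adjusted p = 0.775).

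Among class II pathway genes 9 of 14 on the arrays were tested, and 7 were higher and 2 lower, with a median of 0.61 and 0 passing with limma. Without control 3 of both fields the median was 0.76. In that fit 4 passed, beside 0.977% of all tested, all 4 higher: RT1-DMb, Lgmn, Ifi30 and the lysosomal protease Ctss. RT1-DMb, a chain of the DM molecule that swaps the invariant chain fragment for a peptide, differed by 1.96 ± 0.77 (SE, limma adjusted p = 0.771). It read 9.33, 11.09 and 12.59 in CA1 controls 1 to 3 and 13.18 in the lesion array, and 10.28, 10.98 and 12.69 against 13.07 in CA3. The lesion arrays were highest, with control 3 next in each field. The lysosomal protease Lgmn differed by 0.71 ± 0.28 (SE, limma adjusted p = 0.771). RT1-DMa, the partner chain, differed in CA1 by 0.92 ± 0.35 (SE, limma adjusted p = 0.999). Rfxank, a subunit of the factor that binds class II promoters, was lower, at -1.71 ± 0.62 (SE, limma adjusted p = 0.771), with 7.92 in CA1 against 8.94, 9.98 and 9.40 and 7.14 in CA3 against 8.74, 8.77 and 9.57. Ciita, the class II transactivator, lay below the filter. RT1-Db1, of the RT1-D genes, also lay below it and was not tested. Its lesion array differed from controls 1 to 3 by -2.47, -4.44 and -3.45 in CA1. In CA3 the differences were -2.12, -2.72 and -0.56.

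Interferon gamma signalling genes were tested for 7 of 8 on the arrays, with 6 higher, 1 lower, a median of 0.36 and 0 passing with limma. Without control 3 of both fields the median was 0.43 and 2 passed, Ifngr1 and Irf8, both higher, beside 0.977% of all tested. Ifngr1, the ligand-binding receptor chain, differed by 0.96 ± 0.32 (SE, limma adjusted p = 0.771). It read 12.21, 12.24 and 13.12 in CA1 controls 1 to 3 against 13.43, and 12.01, 12.12 and 12.98 in CA3 against 13.38, so that the lesion arrays were highest and control 3 next. The transcription factor Irf8, which myeloid cells use, differed by 2.06 ± 0.68 (SE, limma adjusted p = 0.771), and Irf1, a transcription factor that binds interferon regulatory factor elements, by 0.89 ± 0.45 (SE, limma adjusted p = 0.796). Ifng itself, the ligand, lay below the filter, with values from 4.85 to 8.93 over the 8 arrays. Of the costimulation genes only Cd86 was tested, at 1.38 ± 1.33 (SE, limma adjusted p = 0.861).

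The median of the tested microglia and macrophage markers stood high in the arrays where Psmb8 did. All 18 markers are on the arrays and 14 were tested, all 14 of them higher in the mean lesion effect, with a median of 2.36 and 0 passing with limma. The Cx3cr1 controls averaged below the filter value, so it was tested only because of its lesion arrays. Its place among the 14 is therefore no support for a lesion effect. The Cx3cr1 lesion array lay below controls 2 and 3 in CA1 (-0.87 and -0.51) and below control 1 in CA3 (-0.29). Without control 3 of both fields 11 of the 14 passed, all higher, with a median of 3.29, beside 0.977% of all tested passing. None passed without control 1 or control 2 of both fields, with medians of 1.60 and 1.94. In each of these fits 0 of all 18625 tested passed. The median marker exceeded controls 1, 2 and 3 by 3.64, 2.80 and 0.48 in CA1 and by 2.77, 2.50 and 0.32 in CA3. Their part in the member results was not tested, and in bulk RNA more cells of a type and more RNA per cell cannot be told apart. Centred on its own mean across arrays, the median marker read -1.81, -0.89 and 1.25 for the CA1 controls and 1.85 in the CA1 lesion array, with Psmb8 in the same order but for control 3 and the lesion array, which differed by 0.01. Of the homeostatic markers, Tmem119 differed by 0.27 ± 0.40 and Cx3cr1 by 0.57 ± 1 (SE), and P2ry12 lay below the filter. For P2ry12 the lesion array minus controls 1 to 3 was 0.85, 1.92 and 0.25 in CA1 and 1.7, 1.62 and -0.61 in CA3.

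**Figure D4:**
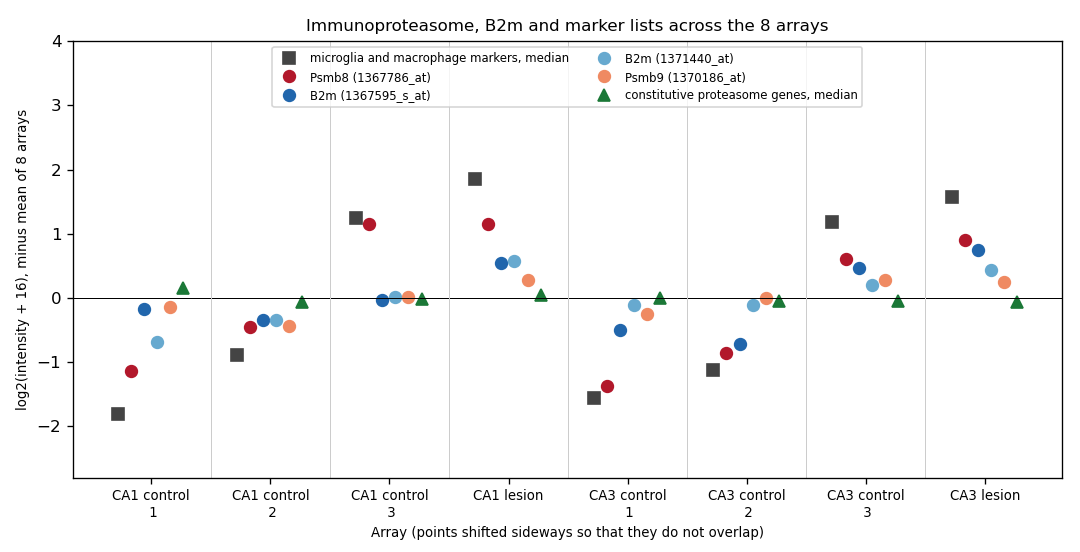
Points give log2(intensity + 16) minus its mean over the 8 arrays, for Psmb8, Psmb9 and both B2m probe sets, and the median of the same quantity over microglia and macrophage markers (squares) and over constitutive proteasome genes (triangles). Squares and Psmb8 are low in controls 1 and 2 and high in control 3 and the lesion arrays, while the triangles stay near 0.

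Lymphocyte markers were near the floor. Of 9 T and NK cell markers on the arrays only Lck passed the filter, and their summed intensity was 1768 to 3156 in the CA3 controls and 2835 in the CA3 lesion array, and 2485 to 4109 and 3062 in CA1. Of 5 B cell markers 2 are on the arrays, both below the filter, with sums from 27 to 530. Dendritic cell markers were tested for 2 of 3 on the arrays, Itgax and Cd83, which microglia can also express, with sums of 2060 to 5728 in CA1 controls and 8066 in the CA1 lesion array, and of 6352 to 7975 and 11053 in CA3. The Itgax controls averaged below the filter value, so it was tested only because of its lesion arrays. Astrocyte markers, with 6 of 6 tested and a median of 0.32, had a sum in the CA1 lesion array within the control range (1196311 against 897477 to 1258934) and one in the CA3 lesion array above it (1325382 against 799122 to 918922). Neuronal markers were lower for 6 of 6 tested in the mean lesion effect (median -0.33, beside 0.02 over all tested), and for 5 of 6 in CA1. Their median difference from controls 1, 2 and 3 was -0.45, -0.63 and 0.01 in CA1. In CA3 it was -0.67, -0.58 and 0.07, so control 3 of each field matched the lesion array. Endothelial and mural markers were tested for 3 of 7, with a median of -0.34 (0.07 without control 2 of both fields) and sums of 1794 to 4349 in CA1 controls and 1819 in the CA1 lesion array, and of 1122 to 1494 and 2860 in CA3.

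The profile of Psmb8 over the 8 arrays was matched most closely, outside the members, by Ifi30, a lysosomal thiol reductase of antigen processing, and Ncf4, a subunit of the phagocyte oxidase, each with a root mean square difference of 0.22 log2 units after centring. Next came Arpc1b, a subunit of the Arp2/3 actin complex, at 0.23, Aspa, aspartoacylase, at 0.24, and Cnp, an enzyme of myelin-forming cells, at 0.27, out of 13962 candidate probe sets. Ifi30 read 11.58, 11.79 and 13.64 in CA1 controls 1 to 3 and 13.97 in the lesion array, and 11.05, 11.70 and 13.57 against 13.64 in CA3. It was low in controls 1 and 2 and high in control 3 and the lesion array of both fields. Cd74 has no such comparison, because it lay below the filter.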

How the data were processed

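The deposited table holds the authors' linear signal intensity per probe set for 8 arrays, and a near-equal 2% trimmed mean (2501) in each array was taken to mean scaling to a common level. The table was used as deposited, its software and build not given in the sources used here. From 31099 probe sets 57 controls were removed, and values were converted to log2(intensity + 16). The 18625 probe sets at or above the 40th percentile of mean log2 were fitted with limma 3.58.1 in R 4.3.3, with 1 coefficient per group, 4 residual degrees of freedom and an intensity trend in the variances. P-values were adjusted by Benjamini-Hochberg over all tested, threshold 0.05, and measure only the spread between these arrays, which may be technical.

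Gene names come from the platform annotation and only from probe sets with 1 symbol. Sequences are RefSeq's (GRCr8). Pathway and marker lists use the brightest probe set of a gene. Beside the members, genes are named that are among the 3 smallest p of a pathway list in a contrast, or the 5 closest profiles to Psmb8. Filter status, cell markers and genes of known role below the filter are named for context. Members, lists, motifs and alternatives were chosen with earlier results of these data known. The fit was tested on simulated data. Arrays have no depth, and their number limits the precision.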

Additional observations from a re-analysis of the deposited data

Results flagged for a closer look

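The dim Tap1 probe set 1375379_at went opposite ways in the lesion arrays. In CA1 the lesion array lay above each of the 3 controls, by 1.72 on average, and in CA3 it lay below each of the 3, by -1.65 on average. The difference was not tested, since the probe set lay below the intensity filter. The other Tap1 probe set, 1388149_at, differed by 0.33 in CA1 and 1.22 in CA3.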

How the results depend on the processing

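In all, 21 other settings were tried. Without probe sets ending in _x_at or _s_at, B2m 1367595_s_at has no value, and without a lesion array the mean effect is that of the other field. For the mean lesion effect and the CA1 lesion effect, the 7 tested member probe sets kept a positive sign in each setting that gave a value. Without control 3 of both fields 3 member probe sets and 182 of all passed for the mean lesion effect, with 3 of all in CA1 and 6 in CA3. With the replicate number as a block, 3 member probe sets (both of B2m and Psmb8) passed for the mean, 2 in CA1 and 1 in CA3, out of 697, 258 and 310 of all, and 358 passed for CA3 against CA1. Same-numbered controls correlated in their deviations at 0.155, 0.06 and 0.306, and each control correlated best with its own number. What the numbers mark is not in the labels, so the main fit did not use them. Shared sets of cultures were not excluded. Both lesion arrays carry number 1, so the block sets their mean against controls 1. Under it the mean lesion effect was 2.27 for Psmb8 (limma adjusted p = 0.000249) and 0.98 and 0.90 for B2m (limma adjusted p = 0.0229 and 0.00733), and 4 class I, 4 class II, 2 interferon gamma and 11 microglia and macrophage genes passed, all higher. These were of 23, 9, 7 and 14 tested. Under the block 2 of 6 astrocyte genes and 1 of 2 dendritic cell genes also passed, higher. Rbfox3 of the neuronal markers and Grik4 of the CA3 pyramidal neuron markers passed lower, at -1.38 and -1.71. Of the 697 over all tested, 468 were higher and 229 lower. List counts without controls 1, 2 or 3 were chosen after seeing the data. In the CA3 lesion contrast 5 of all passed with quantile normalization and 5 with pseudocount 1. Leaving out single arrays gave 24 to 104 of all for CA3 against CA1 (47, 29, 27 and 24 without control 1 of CA1, 1 of CA3, 2 of CA1 and 2 of CA3) and 0 to 1 for the mean lesion effect. For CA3 against CA1, 0 passed without an intensity trend (1533 at an unadjusted p under 0.05), 5 without control 1 of both fields and 0 without control 2 of both (687 at an unadjusted p under 0.05). With the filter at the 60th percentile, 3 of 4 remaining member probe sets had the CA1 lesion array above all controls. The cause was not tested.

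Signs that turned were of uncalled values. Over single arrays left out, they ranged for CA3 against CA1 from -0.43 to 0.16 (B2m 1367595_s_at), -0.96 to 0.26 (Psmb8) and -0.22 to 0.67 (RT1-Da), for the CA3 lesion from -0.21 to 0.20 (Tap2) and -0.31 to 0.58 (RT1-Da), and for the difference from -0.12 to 1.73 (Tap1) and -0.51 to 0.72 (Psmb8). For CA3 against CA1 they were B2m 1367595_s_at at 0.06, 0.01 and 0.16 without CA3 control 1, CA1 control 3 and CA3 control 2, and 0.06 and 0.08 without controls 1 and controls 2 of both fields. Psmb8 stood at 0.02 and 0.26 without CA3 control 1 and CA1 control 3, and RT1-Da at -0.22 and -0.35 without CA3 control 2 and controls 2 of both. In the CA3 lesion effect Tap2 stood at -0.23 with quantile normalization and -0.21 without CA3 control 1 or controls 1 of both, and RT1-Da at -0.11 with quantile normalization and -0.31 without CA3 control 3 or controls 3 of both. In the difference of lesion effects Tap1 stood at -0.12 and -0.08 without CA3 control 2 and controls 2 of both, and Psmb8 at -0.27, -0.51 and -0.01 without CA3 control 1, CA1 control 3 and CA3 control 2.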
